A study of Homo sapiens with 346 samples.

Results

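Solute carriers are membrane proteins that move amino acids, sugars, metals, vitamins, nucleotides and ions across the plasma membrane and the membranes of organelles. Many work as exchangers or are driven by sodium or proton gradients, and the mitochondrial family links the cytosol to the respiratory chain. The genes described here carry a name made of SLC, a family number, the letter A and a member number, and they were selected on a mean TPM (transcript abundance corrected for length and scaled to a fixed total per cell) of at least 5 in the live cells of either cell line. SLC16A1, SLC16A3, SLC2A1 and SLC7A11 were left out of the selection. There were 109 such genes among 310 listed genes with names of this form and 31463 listed genes in all. In live HCT-116 cells 88 of them reached the minimum, in live HepG2 cells 92, and 71 reached it in both. Just inside the minimum were SLC25A28 at 5.02, SLC7A6 at 5.05 and SLC26A11 at 5.50 TPM in the line where each was higher, and just outside it were SLC25A20 at 4.94, SLC46A3 at 4.75 and SLC44A3 at 4.62 TPM.

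HCT-116, a human colorectal carcinoma line, and HepG2, known as a human liver carcinoma line, were each sequenced as single cells by Smart-seq2, a full-length cDNA method primed on poly(A) tails. Live cells went into libraries directly, and fixed cells were first kept in 80% methanol for 1 week, so that fixation and library batch cannot be told apart. The labels name no other treatment. Live cells were stained with propidium iodide before sorting, and fixed cells were rehydrated and washed, so these steps differ between the groups too. The tables hold 91 live and 92 fixed HCT-116 cells and 68 live and 83 fixed HepG2 cells. Each line and treatment counts as 1 sample, because the labels name no separate cultures, so means and SDs are over cells and no test was run. A difference was counted when the means differed by a fold of 2 or more. The same counts over all 8577 genes that met the same minimum in live cells stand beside those of the solute carriers.

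The libraries differed in ways that touch these comparisons. Fixed cells had fewer reads, with a median total of 1.8 M (mega) reads against 2.5 M for live HCT-116 and 2 M against 2.4 M for live HepG2. Ribosomal RNA genes took a mean of 255541 TPM in live HCT-116 cells and 77845 TPM after fixation, and 55242 and 23336 TPM in HepG2. TPM is a share of a fixed total, and over all genes at the minimum the log2 ratio of the fixed to the live mean had a median of 0.18 for HCT-116 and 0.16 for HepG2. One pair of HepG2 columns, 1 live and 1 fixed, is identical, and 6 fixed HepG2 columns resemble each other closely (Pearson correlations of 0.957 to 0.974).

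The tissue markers listed did not bear out either label. Of 17 hepatocyte markers 12 are listed in at least 1 table (ALB, AFP, APOB, APOH and FGA have no row), and in no group did any of them pass 1 TPM in 50% of cells. Their summed level in live HepG2 cells ran from 0 to 35.9 TPM. Markers of luminal breast epithelium passed 1 TPM in 50% of live HepG2 cells for 9 of 10 genes and in live HCT-116 cells for 2. Of 10 listed intestinal epithelial markers 1 passed it in the live cells of each line, and their summed level had a median of 7.78 TPM in live HCT-116 and 21.3 TPM in live HepG2 cells. Of 17 listed carriers typical of liver, 10 had a mean under 1 TPM in live HepG2 cells, among them the bile acid carrier SLC10A1 at 0.23 and the glucose carrier SLC2A2 at 0.02 TPM. The names HCT-116 and HepG2 are used below only as labels.

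As a set, the 109 genes took a small share of the transcriptome in each group. Their TPM per cell added up to 3838 ± 609 (SD over cells) in live HCT-116 cells and 4223 ± 1158 once fixed, against 4263 ± 1009 and 4509 ± 813 in HepG2. The fixed HCT-116 mean and SD include 1 cell with a sum of 13339 TPM, and the HCT-116 medians were 3773 live and 4097 fixed. Mitochondrial carriers took 55.4% of that sum in live HCT-116 cells and 54.6% in live HepG2 cells, and amino acid carriers 19.5% and 14.6%. A live HCT-116 cell had a TPM above 0 for a mean of 97.7 ± 5.53 of the genes and a fixed one for 86.8 ± 9.35, and the HepG2 means were 98.9 ± 5.01 and 91.7 ± 9.69. Fewer genes of all kinds were above 0 in fixed cells as well, with medians of 12031 live and 10359 fixed in HCT-116. In HepG2 these medians were 13887 and 12293, so fewer detected genes were not particular to the members. Read depth was lower in fixed cells too, and its part in this was not tested.

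Coding sequence is shown first for the genes at both ends of the fixed to live scale, because the members that were low after fixation shared a high GC content. For each of the 3 genes with the lowest ratio averaged over both lines, among those at the minimum in both, the middle 120 coding bases are given 5′ to 3′ with G and C in capitals (GRCh38, GENCODE reference transcripts). SLC25A25 is shown from exons 6 and 7 of 11 (plus strand, chr9:128103768-128105776, with an intron between), SLC38A10 from exon 13 of 16 (minus strand, chr17:81252403-81252522) and SLC19A1 from exon 3 of 6 (minus strand, chr21:45531393-45531512).
SLC25A25: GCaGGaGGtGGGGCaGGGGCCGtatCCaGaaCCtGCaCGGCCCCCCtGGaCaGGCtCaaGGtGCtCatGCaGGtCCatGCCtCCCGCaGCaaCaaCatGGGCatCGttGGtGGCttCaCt
SLC38A10: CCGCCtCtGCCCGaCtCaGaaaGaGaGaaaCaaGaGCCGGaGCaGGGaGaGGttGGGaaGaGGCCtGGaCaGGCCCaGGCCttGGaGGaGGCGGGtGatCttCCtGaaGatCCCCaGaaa
SLC19A1: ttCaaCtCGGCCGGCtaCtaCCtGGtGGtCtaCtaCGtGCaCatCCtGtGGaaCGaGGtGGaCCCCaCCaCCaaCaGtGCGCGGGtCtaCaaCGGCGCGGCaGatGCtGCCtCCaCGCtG

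The 3 genes with the highest averaged ratio are given in the same way for contrast. SLC25A5 is among them with 1 fixed HCT-116 cell at 10193 TPM included. With the highest cell of each group left out, its ratios were 0.43 in HCT-116 and 0.53 in HepG2. That is a lower average than for SLC30A6, which had 0.53 and 0.48. SLC35A5 is shown from exon 6 of 7 (plus strand, chr3:112580694-112580813), SLC25A5 from exon 2 of 4 (plus strand, chrX:119469937-119470056) and SLC25A17 from exons 5 and 6 of 9 (minus strand, chr22:40777306-40779060, with an intron between).
SLC35A5: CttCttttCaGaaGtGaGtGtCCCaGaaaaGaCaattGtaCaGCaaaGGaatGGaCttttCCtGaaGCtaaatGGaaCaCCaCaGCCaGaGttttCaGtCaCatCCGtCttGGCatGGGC
SLC25A5: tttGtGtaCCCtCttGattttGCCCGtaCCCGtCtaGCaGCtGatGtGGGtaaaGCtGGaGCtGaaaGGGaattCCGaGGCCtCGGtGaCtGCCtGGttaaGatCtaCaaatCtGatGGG
SLC25A17: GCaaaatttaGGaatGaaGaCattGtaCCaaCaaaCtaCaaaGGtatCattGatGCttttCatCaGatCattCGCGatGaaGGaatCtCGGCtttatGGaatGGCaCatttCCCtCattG

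Of each 120 bases, 77, 73 and 75 were G or C in the first set, and 54, 61 and 46 in the second. Over the whole coding sequence the share was 59.6% in SLC25A25, 64.5% in SLC38A10 and 65.5% in SLC19A1, against 41.7% in SLC35A5, 52.5% in SLC25A5 and 45.6% in SLC25A17.

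The first comparison asked how the lines differ when live. Of 109 members, 29 (26.6%) had a mean at least 2-fold higher in live HepG2 than in live HCT-116 cells, as did 19.9% of all genes, and 21 (19.3%) had a mean at least 2-fold higher in HCT-116, as did 19.5% of all genes. The median log2 ratio of HepG2 to HCT-116 was 0.29 over members and 0.01 over all genes. For 41 members the means lay further apart than the SD over cells, taken as the root of the mean variance of the 2 groups. This was not counted over all genes, so it cannot be set against a background. The selection accepted a gene from either line, so a member near 0 in one had to be above the minimum in the other. Among the 71 members at the minimum in both, 14 (19.7%) were past the fold towards HepG2 and 7 (9.86%) towards HCT-116, beside 11.4% and 12.6% of 6122 genes of all kinds. Counts by substrate class stand against the 19.9% and 19.5% of all genes, and differences between classes were not tested.

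**Figure D1:**
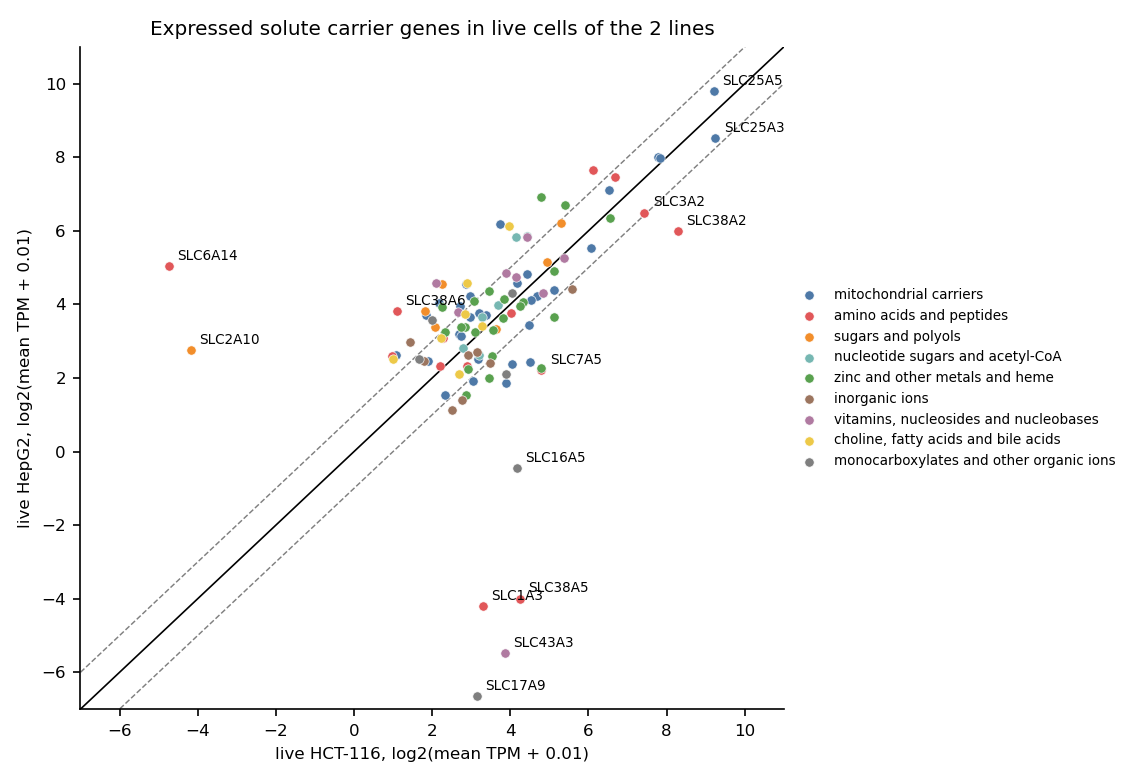
Mean level of each of the 109 solute carrier genes in live HCT-116 (x axis) and live HepG2 cells (y axis), both as log2(mean TPM + 0.01), coloured by substrate class, with a solid line at equal levels and dashed lines at a 2-fold difference. SLC6A14 and SLC2A10 lie far above the lines, and SLC43A3, SLC38A5, SLC1A3, SLC16A5 and SLC17A9, which has no HepG2 row and is drawn at 0, far below.

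Amino acid carriers held several of the widest line differences. SLC6A14, an importer of neutral and cationic amino acids driven by sodium and chloride, ranged from 0 to 0.323 TPM around a median of 0 in live HCT-116 cells. In live HepG2 cells it ranged from 0 to 182.8 TPM around a median of 26.2. It was detected in 16.5% of the former (exact 95% interval 9.53% to 25.7%) and 91.2% of the latter (81.8% to 96.7%), so that it stayed near 0 in HCT-116 and spread widely in HepG2. SLC38A5, a glutamine and glycine carrier, ran the other way, with 19.1 ± 13.6 TPM in live HCT-116 cells and a value above 0 in 2 of 68 live HepG2 cells. SLC1A3, a glutamate carrier, had 9.78 ± 10.6 TPM in live HCT-116 cells and was likewise above 0 in 2 of 68 live HepG2 cells.

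The sodium-coupled carriers of neutral amino acids split between the lines. SLC38A2, which takes up small neutral amino acids and is known to respond to amino acid shortage, ranged from 102.9 to 1925 TPM around a median of 254 in live HCT-116 cells. In live HepG2 cells it ranged from 8.97 to 161.8 TPM around a median of 63.2. Its mean was 4.898-fold higher in HCT-116, and the ranges overlapped only between the lowest HCT-116 and the highest HepG2 cells. Its relative SLC38A1 was 2.901-fold higher in HepG2 (200.4 ± 87.7 against 69.1 ± 33.2 TPM), and so was SLC38A6 of the same family by 6.63-fold (14.2 ± 12.8 against 2.14 ± 3.49 TPM). SLC1A5, the glutamine exchanger of many proliferating cells, stayed within the fold at 177.1 ± 90.7 TPM in live HepG2 and 103.2 ± 54.2 TPM in live HCT-116 cells.

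Some exchangers are built from a heavy and a light chain. SLC3A2, the glycoprotein heavy chain that brings light chains to the cell surface, ranged from 23.2 to 446 TPM around a median of 159.9 in live HCT-116 cells and from 1.74 to 242 TPM around a median of 86.5 in live HepG2 cells. SLC7A5, the light chain that carries leucine and other large neutral amino acids, had 27.8 ± 20.3 and 4.62 ± 7.23 TPM and was 6.03-fold higher in HCT-116. SLC7A6, a light chain that exchanges cationic for neutral amino acids, had 4.63 ± 3.17 and 5.05 ± 3.12 TPM, which differ by far less than the spread. The heavy chain SLC3A1 and the light chains SLC7A7, SLC7A8 and SLC7A9 (the last with no HepG2 row) had means under 1 TPM in all groups with a row and were no members.

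Sugar carriers were mostly higher in HepG2, with 4 of 7 members past the fold and none past it towards HCT-116. SLC2A10, of the glucose transporter family, was above 0 in 28.6% of live HCT-116 cells (19.6% to 39%) with a highest value of 0.478 TPM. In live HepG2 cells it was above 0 in 94.1% (85.6% to 98.4%) with a median of 5.05 TPM. SLC2A8, a hexose transporter of inner membranes, had 4.74 ± 4.68 and 23.6 ± 13.7 TPM. The sugar phosphate exchanger family member SLC37A1 (3.54 ± 4.76 and 14.2 ± 9.57 TPM) and SLC2A6 of the glucose transporter family (4.22 ± 5.42 and 10.5 ± 11.3 TPM) completed the higher genes.

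The most abundant sugar carrier differed less. SLC50A1, of the SWEET family, had 39.3 ± 31.2 TPM in HCT-116 and 74.7 ± 32.04 TPM in HepG2 cells when live, under the fold. SLC37A4, which moves glucose 6-phosphate into the endoplasmic reticulum for glucose release by liver, differed by less than its spread, at 30.7 ± 17.7 and 35.6 ± 20.9 TPM. Of the 6 nucleotide sugar and acetyl-CoA carriers 2 were past the fold towards HepG2, the CMP-sialic acid carrier SLC35A1 (57.6 ± 26.04 against 21.4 ± 13.7 TPM) and SLC35A4 (57.1 ± 23.4 against 17.7 ± 10.2 TPM). The UDP-galactose carrier SLC35A2 was alike at 15.7 ± 9.77 and 12.9 ± 7.97 TPM.

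Among 22 carriers of zinc, copper, iron, magnesium and heme, 4 were past the fold in each direction, beside 19.9% of all genes towards HepG2 and 19.5% towards HCT-116. SLC39A1, a zinc importer, ranged from 0 to 73.5 TPM around a median of 26.2 in live HCT-116 cells and from 1.97 to 283 TPM around a median of 112.4 in live HepG2 cells, where its mean was 4.33-fold higher. SLC39A6, a zinc importer known as an estrogen-regulated gene of breast tumours, was 2.47-fold higher in HepG2 (104.8 ± 91.1 against 42.4 ± 13.5 TPM) and varied there from 7.4 to 490.4 TPM between cells. Of the zinc importers, SLC39A8 was also past the fold towards HepG2, but its medians were 6.31 TPM in HepG2 and 6.46 TPM in HCT-116. SLC31A2, of the copper transporter family, had 15.1 ± 16.4 TPM in HepG2 and 4.73 ± 5.11 TPM in HCT-116.

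Towards HCT-116, the importers SLC39A14, SLC39A10 and SLC39A3 were past the fold. SLC39A14, which also carries manganese and iron and is abundant in liver, had 27.5 ± 16.6 TPM in live HCT-116 and 4.802 ± 3.68 TPM in live HepG2 cells. SLC39A10 had 10.9 against 3.97 TPM and SLC39A3 34.5 against 12.7 TPM. Among the exporters, SLC30A3, known for filling vesicles with zinc, was past it too, at 7.34 ± 6.82 against 2.91 ± 3.23 TPM. SLC30A5, SLC30A6, SLC30A7 and SLC30A9, which load zinc into compartments or carry it in the cell, stayed within the fold, as did the importers SLC39A4, SLC39A7, SLC39A9, SLC39A11 and SLC39A13. SLC39A4, which takes up dietary zinc in the intestine, was among the most abundant, with 93.2 ± 47.3 and 82.3 ± 35.6 TPM.

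Mitochondrial carriers had the highest levels. SLC25A5, an ADP/ATP carrier of dividing cells, had 597 ± 145.1 TPM in live HCT-116 and 886 ± 343 TPM in live HepG2 cells, and SLC25A3, the phosphate carrier, had 609 ± 133.4 and 366 ± 82 TPM. The ADP/ATP carrier SLC25A6 stood at 229 ± 67.5 and 255 ± 97.2 TPM, and SLC25A4, the form of heart and muscle, at 16.4 ± 12.6 and 5.25 ± 4.13 TPM. SLC25A31, the testis form, has no row in the HCT-116 table and was above 0 in 1 of 68 live HepG2 cells. The mitochondrial glutathione carrier SLC25A39 was alike in the lines, at 220.5 ± 70.8 and 258 ± 92.3 TPM.

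Of the 31 mitochondrial carriers (the SLC25 family, with the peroxisomal SLC25A17 counted in it), 7 were past the fold towards HepG2 and 5 towards HCT-116. This again stands beside 19.9% and 19.5% of all genes. SLC25A24, a calcium-regulated ATP-Mg/phosphate carrier, was 5.44-fold higher in HepG2 (73.03 ± 34.4 against 13.4 ± 7.41 TPM). The glutamate carrier SLC25A22 was 4.22-fold higher in HCT-116 (22.8 ± 12.2 against 5.41 ± 5.14 TPM).

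In the remaining classes, SLC43A3 and SLC17A9 were detected almost only in HCT-116. SLC43A3, a purine nucleobase carrier, was above 0 in 82 of 91 live HCT-116 cells with a median of 12.4 TPM, and in 1 of 68 live HepG2 cells, at 0.854 TPM. SLC17A9, the vesicular nucleotide carrier, had 8.83 ± 7.83 TPM in live HCT-116 cells and has no row in the HepG2 table, where it was taken as 0. SLC16A5, of the monocarboxylate carrier family, was 24.8-fold higher in live HCT-116 cells (17.9 ± 14.2 against 0.7197 ± 2.07 TPM). It was above 0 in 43 of 68 live HepG2 cells, but with a median of 0.12 TPM and over 1 TPM in only 10.3% of them. The sialic acid exporter of lysosomes SLC17A5 (14.8 ± 10.6 against 4.35 ± 4.94 TPM) and the phosphate carrier SLC20A1 (47.5 ± 34 against 21.6 ± 16.05 TPM) were past the fold towards HCT-116 as well.

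Towards HepG2 the nucleoside carrier of lysosomes SLC29A3 (24.1 ± 18.7 against 4.26 ± 4.57 TPM), the biotin and pantothenate carrier SLC5A6 (56.5 ± 33.8 against 21.5 ± 12.9 TPM) and the choline carrier family members SLC44A2 (70.1 ± 29.2 against 15.5 ± 13.5 TPM) and SLC44A1 (23.8 ± 16.9 against 7.36 ± 6.36 TPM) were past the fold. The equilibrative nucleoside carrier SLC29A1 differed by less than its spread, at 38.1 ± 24.8 and 41.2 ± 25.2 TPM, as did the organic cation carrier family member SLC22A18 at 19.8 ± 13.6 and 16.4 ± 17.4 TPM. None of the 7 choline, fatty acid and bile acid carriers was past the fold towards HCT-116, and 3 were past it towards HepG2.

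A list of 10 carriers tied to the estrogen receptor in breast cells, drawn up with results of these data known, held 6 members, of which 4 were past the fold towards HepG2, both live and fixed, and 0 towards HCT-116, beside 19.9% (live) and 19.7% (fixed) of all genes towards HepG2. They were SLC39A6, the carnitine carrier SLC22A5, the thiamine carrier SLC19A2 and the sodium, potassium and chloride cotransporter SLC12A2. SLC22A5 had 12 ± 8.19 against 3.99 ± 4.34 TPM in live cells, SLC19A2 13.8 ± 9.64 against 6.31 ± 6.31 TPM and SLC12A2 7.87 ± 5.399 against 2.72 ± 2.05 TPM. For SLC12A2, a curated transcript given below (NM_001046.2) ran the other way between the live lines. ESR1, the estrogen receptor itself, had means of 47.7 TPM in live HepG2 and 0.925 TPM in live HCT-116 cells. Of the intestinal carriers on a list of 13, only SLC39A4 and SLC12A2 were members.

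**Figure D2:**
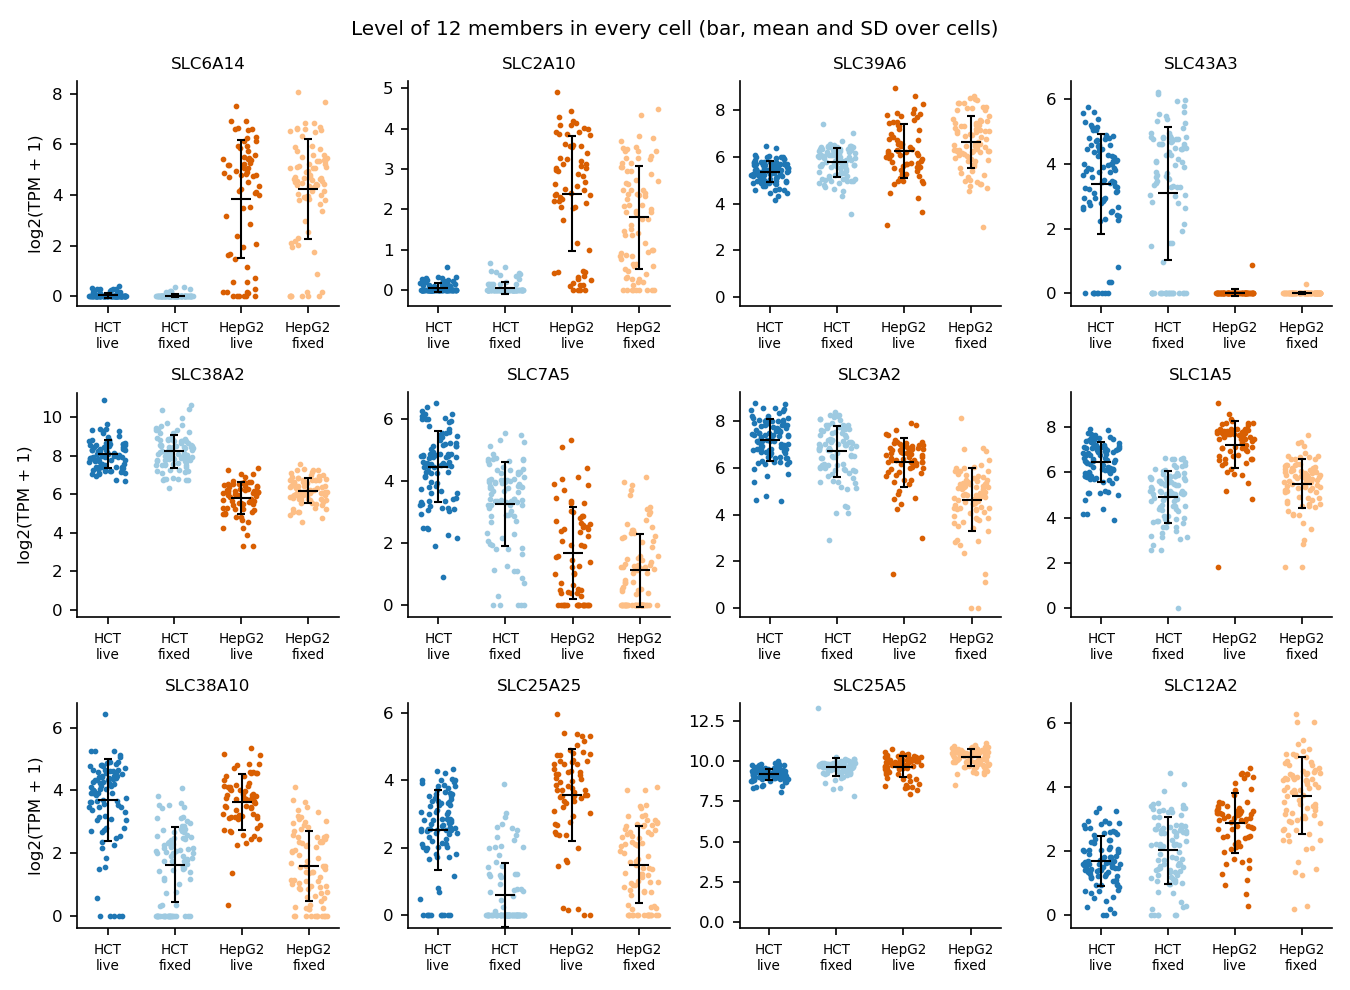
Level of 12 solute carrier genes in every cell, as log2(TPM + 1), in live (dark) and fixed (light) HCT-116 cells in blue and HepG2 cells in orange; black bars give the mean and SD over cells on that scale. The means of SLC6A14, SLC2A10, SLC43A3 and SLC38A2 lie apart between the lines in live and in fixed cells, with single cells overlapping, SLC1A5, SLC38A10 and SLC25A25 sit lower in fixed cells of both lines, and 1 fixed HCT-116 cell stands apart for SLC25A5.

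The second comparison asked whether the line differences were also seen after fixation. Among fixed cells 28 of 109 members (25.7%) were at least 2-fold higher in HepG2, as were 19.7% of all genes, and 21 (19.3%) were higher in HCT-116, as were 18.6%. Of the members higher in HepG2, 24 were past the fold in both comparisons, 82.8% of the live and 85.7% of the fixed list, beside 81.3% and 82.2% over all genes. Of those higher in HCT-116, 19 were in both lists, 90.5% of each, beside 79.4% and 83.2% over all genes. Over the members with a ratio in both (all but SLC38A5 and SLC17A9), the log2 ratios of HepG2 to HCT-116 from live and from fixed cells had a Pearson correlation of 0.97, against 0.93 over 8360 genes of all kinds. The live and the fixed comparison share no cells, apart from the pair of identical columns, but share the lines and the annotation.

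Genes with a mean near 0 in 1 live line had the same direction in fixed cells. In fixed HepG2 cells SLC6A14 ranged from 0 to 270 TPM around a median of 23.3, and it was above 0 in 7 of 92 fixed HCT-116 cells, with a highest value of 0.289 TPM. SLC2A10 had medians of 2.81 TPM in fixed HepG2 and 0 TPM in fixed HCT-116 cells. SLC38A5 had 20.6 ± 18.5 TPM in fixed HCT-116 cells and was listed at 0 in all fixed HepG2 cells, which allows up to 4.35% of cells. SLC43A3 had 16.4 ± 17.1 TPM in fixed HCT-116 cells and was above 0 in 1 of 83 fixed HepG2 cells. SLC1A3 had 13.9 ± 16.2 TPM in fixed HCT-116 cells and was above 0 in 12 of 83 fixed HepG2 cells.

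For other genes the line ratio of fixed cells differed from that of live cells to varying extents. SLC38A2 was 4.61-fold higher in HCT-116 and SLC7A5 5.69-fold. SLC31A2 had a log2 ratio of HepG2 to HCT-116 of 1.68 from live and 2.74 from fixed cells. The cation-chloride cotransporter family member SLC12A8 had -1.39 and -2.24, SLC39A14 -2.52 and -3.02, and SLC37A1 2.01 and 2.04. SLC3A2 was past the fold only among fixed cells, with 131.8 ± 81.9 TPM in HCT-116 and 34.8 ± 35.9 TPM in HepG2. Whether the live and fixed line ratios of these genes differ was not tested.

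The third comparison set fixed against live cells of the same line. In HCT-116, 13 of 109 members (11.9%) were at least 2-fold lower after fixation, as were 8.89% of all genes, and 0 were at least 2-fold higher, as were 1.45% of all genes. In HepG2, 17 members (15.7% of all but SLC17A9) were at least 2-fold lower, as were 9.4% of all genes, and 2 (1.85%) were at least 2-fold higher, as were 2.78%. The median log2 ratio over members was -0.01 in HCT-116 and -0.07 in HepG2, below the medians of 0.18 and 0.16 over all genes. The means lay further apart than the SD over cells for 5 members in HCT-116 and 10 in HepG2, which again was not counted over all genes. Among the HepG2 calls, SLC38A5 and SLC43A3 (lower) and SLC1A3 (higher) had means under 1 TPM in both live and fixed cells. Members and all genes were selected on live means, which are also the denominators of these ratios. The selection can therefore favour lower over higher calls. With no minimum, 14.3% of members were lower in HCT-116 and 18.5% in HepG2, beside 15.1% and 19.5% of all genes.

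**Figure D3:**
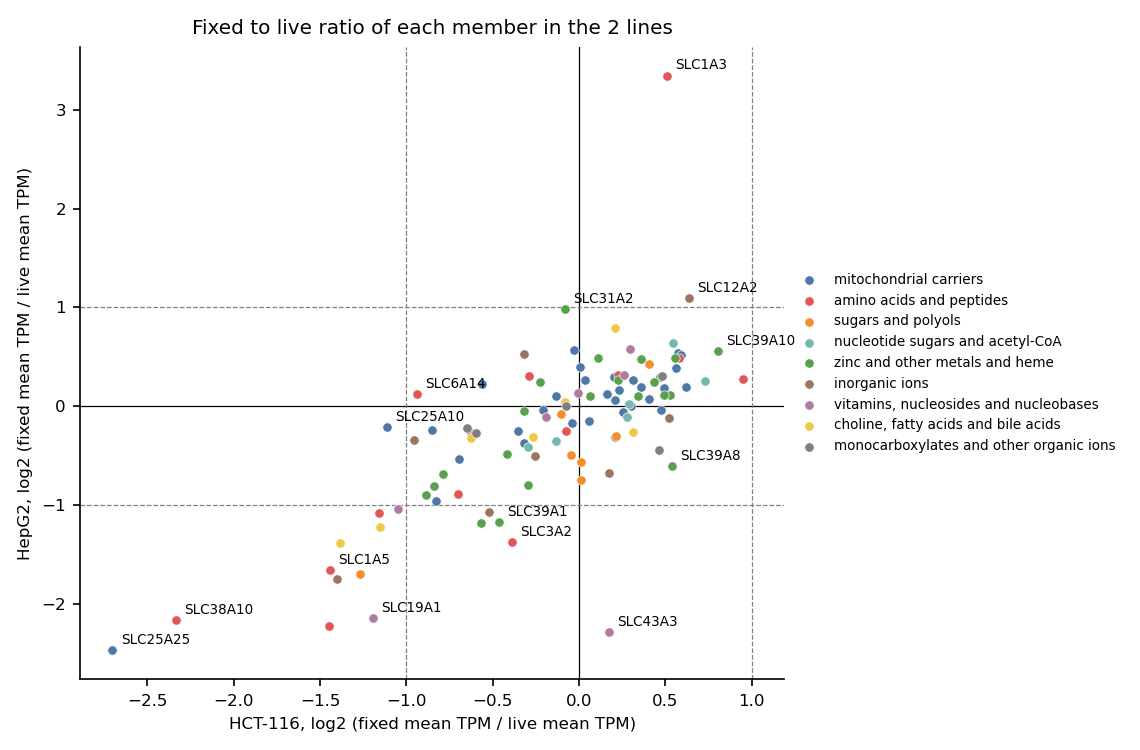
Log2 ratio of the mean TPM of fixed to that of live cells for each member in HCT-116 (x axis) and HepG2 (y axis), coloured by substrate class, with dashed lines at a 2-fold difference; SLC38A5, at 0 in fixed HepG2 cells, and SLC17A9, with no HepG2 row, are not drawn. The 11 members past the fold downwards in both lines fill the lower left corner, and SLC1A3 and SLC43A3, at trace levels in HepG2, lie apart.

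Most genes low after fixation in one line were low in the other. SLC19A1, SLC1A5, SLC25A25, SLC26A11, SLC27A3, SLC27A4, SLC29A2, SLC2A6, SLC38A10, SLC43A2 and SLC7A5 were past the fold in each, 84.6% of the HCT-116 list and 64.7% of the HepG2 list. Over all genes at the minimum the shared part was 62% and 58.5%. Across the members drawn there the log2 ratios in the lines had a Pearson correlation of 0.72 and a Spearman correlation of 0.70, and across 8360 genes 0.53 and 0.56. The points share the storage, the chemistry and the lower depth of fixed libraries, so this is a description only.

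SLC25A25, a calcium-regulated ATP-Mg/phosphate carrier like SLC25A24, had the lowest ratio averaged over both lines, among members at the minimum in both. In HCT-116 it ranged from 0 to 19.2 TPM around a median of 5.52 when live and from 0 to 13.8 TPM around a median of 0 when fixed. In HepG2 it ranged from 0 to 61.5 TPM around a median of 12.4 when live and from 0 to 13.04 TPM around a median of 1.65 when fixed. The means were 6.51-fold and 5.54-fold lower in fixed cells, and the share of HCT-116 cells with a value above 0 was 89.01% live (80.7% to 94.6%) and 36.96% fixed (27.1% to 47.7%). Its relative SLC25A24, with a transcript GC content of 38.5% against 57.7%, had log2 ratios of 0.25 in HCT-116 and -0.06 in HepG2.

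SLC38A10, a carrier of neutral amino acids, came next on that average. It had 16.3 ± 11.96 TPM live and 3.23 ± 3.29 TPM fixed in HCT-116 and 13.6 ± 8.11 TPM live and 3.04 ± 3.28 TPM fixed in HepG2. In HepG2 alone its log2 ratio of -2.16 lay above that of SLC43A2 (-2.23), and above those of SLC43A3 and SLC38A5 at trace level. SLC1A5 ranged from 14.1 to 243 TPM around a median of 97.1 in live HCT-116 cells and from 0 to 99.5 TPM around a median of 33.4 in those fixed. In HepG2 its median was 178.9 TPM live and 50.8 TPM fixed, and its means were 2.72-fold and 3.15-fold lower in HCT-116 and HepG2. SLC19A1, which imports reduced folates and antifolate drugs such as methotrexate, had 17.9 ± 10.6 TPM live and 7.81 ± 6.93 TPM fixed in HCT-116 and 26.7 ± 15.7 TPM live and 6.05 ± 6.22 TPM fixed in HepG2. For these genes the ranges of live and fixed cells overlapped, and the medians were lower in the fixed cells of both lines.

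Other low genes came from several classes. SLC43A2, a carrier of large neutral amino acids, had log2 ratios of -1.45 in HCT-116 and -2.23 in HepG2, but its HCT-116 medians were both low, 0.136 TPM live and 0.142 TPM fixed. The sulfate carrier family member SLC26A11 (-1.40 and -1.75), SLC2A6 (-1.27 and -1.70), the fatty acid transport proteins SLC27A3 (-1.38 and -1.38) and SLC27A4 (-1.16 and -1.22) and the nucleoside carrier SLC29A2 (-1.05 and -1.04) were past the fold in both lines. SLC17A9 was 3.51-fold lower in fixed HCT-116 cells, and the mitochondrial dicarboxylate carrier SLC25A10 had log2 ratios of -1.12 in HCT-116 and -0.21 in HepG2.

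The chains of the leucine exchanger were lower in fixed cells, each to its own extent. SLC7A5 had means 2.24-fold lower in HCT-116 and 2.11-fold lower in HepG2. SLC3A2 had a log2 ratio of -0.39 in HCT-116 and -1.38 in HepG2, where its median was 86.5 TPM live and 27.9 TPM fixed. The zinc importers SLC39A1 (-1.17) and SLC39A13 (-1.18) and the anion exchanger SLC26A6 (-1.07) also passed the fold in HepG2, with -0.46, -0.57 and -0.52 in HCT-116. Differences between the lines in these ratios were not tested.

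Means were higher in fixed than in live cells for 54 of 109 members in HCT-116 and for 48 (SLC17A9 left out) in HepG2. Over all genes at the minimum, means were higher for 5351 of 8505 in HCT-116 and 5271 of 8532 in HepG2. Both are larger shares than among members. Few members were past the fold. SLC12A2 was the only gene above trace level past the fold, ranging from 0.235 to 23.3 TPM around a median of 7.17 in live HepG2 cells and from 0.144 to 77.2 TPM around a median of 14.1 in fixed ones, and its log2 ratio in HCT-116 was 0.64. Its HepG2 ratio of 1.09 fell under the fold with cells rescaled by the median ratio of genes (0.99), without ribosomal RNA (0.93), relative to all genes (0.93), with means of log2(TPM + 1) (0.85) and with medians (0.97). Within the fold, SLC39A10 (0.80 in HCT-116 and 0.56 in HepG2), SLC35A1 (0.73 and 0.26), the lysosomal amino acid sensor SLC38A9 (0.58 and 0.48) and the peroxisomal carrier SLC25A17 (0.58 and 0.54) had higher means after fixation. SLC25A5 had 0.59 and 0.52. A single fixed HCT-116 cell lists SLC25A5 at 10193 TPM, and with the highest cell of each group left out the ratio in that line was 0.43.

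Counts of low genes by substrate class stand beside the 8.89% (HCT-116) and 9.4% (HepG2) of all genes, and differences between classes were not tested. Of 14 amino acid carriers 4 were at least 2-fold lower after fixation in HCT-116 and 6 in HepG2, with median log2 ratios of -0.34 and -0.57. Their summed TPM was 750.2 ± 299 live and 670 ± 301 fixed in HCT-116, and 621 ± 206 live and 419 ± 126.8 fixed in HepG2. Of 8 vitamin, nucleoside and nucleobase carriers 2 and 3 were lower, and of 7 choline, fatty acid and bile acid carriers 2 in each line. The HepG2 counts include SLC38A5 among amino acid carriers and SLC43A3 among nucleobase carriers, both with means under 1 TPM live and fixed. Of 31 mitochondrial carriers 2 and 1 were lower, with medians of 0.16 and 0.07, and their share of the summed TPM went from 55.4% to 60.8% in HCT-116 and from 54.6% to 62.8% in HepG2. The share in fixed HCT-116 cells includes the cell with SLC25A5 at 10193 TPM.

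None of the 6 nucleotide sugar and acetyl-CoA carriers was past the fold after fixation in either line. Among 22 metal and heme carriers 0 were past it in HCT-116 and 2 were lower in HepG2. Among 7 sugar carriers SLC2A6 was the only one past it in each line, and the median of that class stood at 0.01 in HCT-116 against -0.50 in HepG2. The 8 inorganic ion carriers held 1 lower in HCT-116 and 2 lower and 1 higher in HepG2, and the 6 monocarboxylate and other organic ion carriers 1 lower in HCT-116 and 0 of 5 with a row in HepG2. The median transcript GC content was 39.1% for nucleotide sugar carriers, 49.9% for amino acid carriers, 56.2% for sugar carriers and 62.1% for choline, fatty acid and bile acid carriers.

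The fixed to live ratio of members went with the GC content of the transcript. All 109 members had a reference transcript. The Spearman correlation of the log2 ratio with GC content was -0.58 over 109 members in HCT-116 and -0.50 over all but SLC38A5 and SLC17A9 in HepG2, against -0.50 over 7763 and -0.31 over 7771 genes of all kinds. With transcript length it was -0.02 over members in both lines, and with the mean live level 0.07 and 0.08. The points share the libraries, and the part of base composition in the ratios was not tested.

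**Figure D4:**
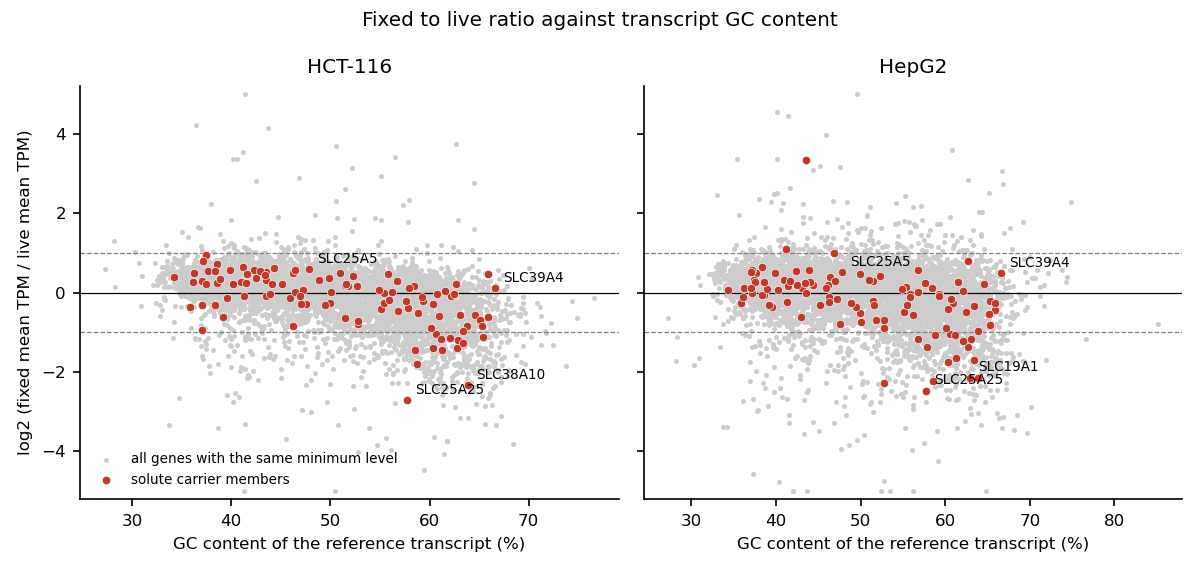
Log2 ratio of fixed to live mean TPM (y axis) against the GC content of the reference transcript in percent (x axis) in HCT-116 and HepG2, with solute carrier members in red and all genes at the same minimum level in grey; dashed lines mark a 2-fold difference and grey points beyond 5 are drawn at 5. Members past the fold downwards lie at a GC content of 57.7% or more in HCT-116 and 52.7% or more in HepG2, and SLC39A4, the member richest in GC, is not among them.

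Counted in bands, 13 of 46 members with a GC content of 55% or more were at least 2-fold lower in fixed HCT-116 cells (28.3%, beside 22.3% of all genes in that band), and 0 of 27 between 45% and 55% (beside 4.2%) and 0 of 36 under 45% (beside 2.03%) were. In HepG2 the counts were 15 of 44 (34.1%, beside 20.8%), 1 of 27 (3.7%, beside 5.71%) and 0 of 36 (beside 2.81%). The median log2 ratios from the lowest to the highest band were 0.33, 0.06 and -0.49 for HCT-116, against 0.19, -0.15 and -0.47 for HepG2. Over all genes in these bands they were 0.34, 0.18 and -0.35 for HCT-116, against 0.27, 0.17 and -0.21 for HepG2. Not every GC-rich member was lower: SLC39A4 (66.6%) had log2 ratios of 0.11 and 0.49, SLC25A39 (61.5%) 0.04 and 0.26, and SLC27A5 (62.7%), a bile acid ligase of liver, 0.21 and 0.79. The GC content is that of 1 reference transcript per gene, while the ratio covers all its transcripts, which differed for SLC39A4 (below).

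Transcripts of a gene did not all move alike. These values are CPM (reads scaled to the total of the cell) of curated RefSeq transcripts, are not divided by length, and rest on the split of reads between isoforms that kallisto estimated. For SLC1A5, NM_005628.2 had a mean of 130 CPM live and 25.7 CPM fixed in HCT-116, and NM_001145144.1 had 36.8 and 29.4 CPM. In HepG2 the means were 160.6 and 25.9 CPM for NM_005628.2, and 145.8 and 57.4 CPM for NM_001145144.1. The SLC38A10 transcript NM_001037984.2 went from a mean of 18.3 CPM to values of effectively 0 in fixed HCT-116 cells and from 11.4 to 0.732 CPM in HepG2. Its other transcript NM_138570.3 had 15.9 CPM live and 5.09 CPM fixed in HCT-116, and 13.1 and 3.39 CPM in HepG2.

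SLC4A2, a chloride and bicarbonate exchanger whose gene-level log2 ratios were -0.96 in HCT-116 and -0.34 in HepG2, was uneven too. NM_003040.3 had 13.2 CPM live and 0.6104 CPM fixed in HCT-116 and 5.63 and 0.264 CPM in HepG2, while NM_001199693.1 had 19.2 and 17.6 CPM in HCT-116 and 12.6 and 13.4 CPM in HepG2. For SLC12A2, NM_001046.2 made up 66.5% of the curated CPM in live HCT-116 and 64.7% in live HepG2 cells. Its means were 4.42 CPM live and 1.86 CPM fixed in HCT-116 and 2.59 and 7.24 CPM in HepG2, with medians of 0. Between the live lines, and after fixation in HCT-116, this is opposite to the gene-level direction. For SLC25A1, the mitochondrial citrate carrier, the split followed the line. NM_005984.4 made up 75.6% of its curated CPM in live HCT-116 and 33.6% in live HepG2 cells, and 67.4% and 33.3% after fixation.

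Within live HCT-116 cells the chains of the leucine exchanger varied together. On log2(TPM + 1) over 91 cells, SLC3A2 and SLC7A5 had a Pearson correlation of 0.75, the highest of 3828 pairs of members at 5 TPM or more, whose median was 0.07. SLC3A2 with the cationic amino acid carrier SLC7A1 had 0.66, SLC1A5 with SLC7A5 0.63 and SLC1A5 with SLC3A2 0.62, while SLC38A2 with SLC3A2 had 0.22. The number of genes detected per cell correlated with SLC3A2 and SLC7A5 at 0.10 and 0.14. SLC3A2 and SLC7A5 had 0.47 in fixed HCT-116, 0.45 in live HepG2 and 0.49 in fixed HepG2 cells. The pairs were picked after their values were seen, and cells of 1 sample share their library preparation.

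**Figure D5:**
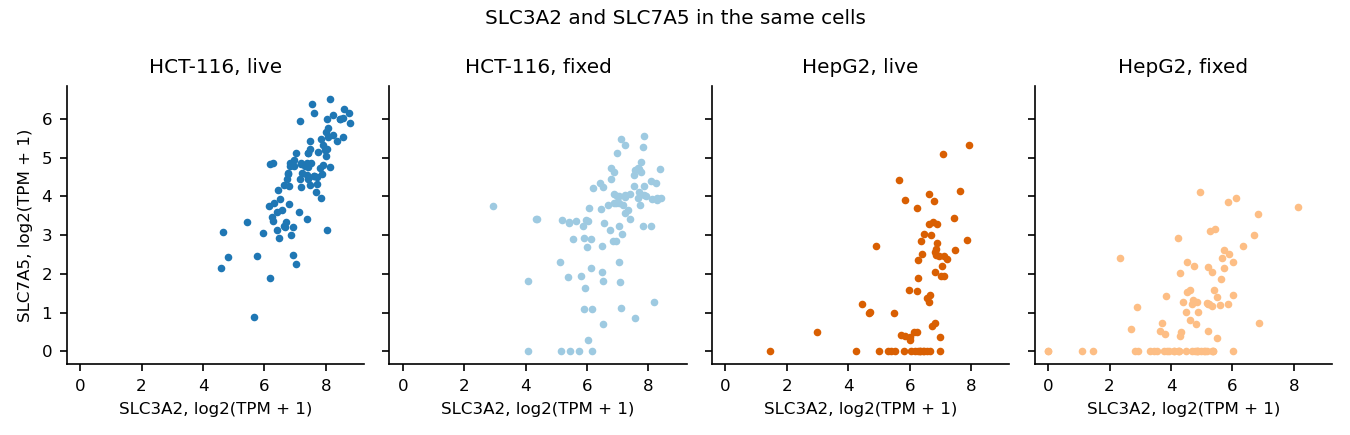
SLC3A2 (x axis) and SLC7A5 (y axis), both as log2(TPM + 1), with 1 point per cell and 1 panel for each of the 4 groups. In live HCT-116 cells the genes are high and low together (Pearson correlation 0.75), and in HepG2 cells many points lie at 0 for SLC7A5.

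In live HepG2 cells the median correlation between members was higher, at 0.20 over 4186 pairs, but SLC1A5 with SLC7A5 had 0.17. The highest was that of SLC35A4 and SLC39A1, with a Pearson correlation of 0.76 and a Spearman correlation of 0.47. The number of genes detected correlated with SLC35A4 and SLC39A1 at 0.45 and 0.36 there, and its part in these values was not tested.

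Proteins that work with solute carriers were followed as a list of 20 genes, of which 17 met the minimum. In HCT-116 none of them was past the fold after fixation, beside 8.89% of all genes lower and 1.45% higher. In HepG2 1 was lower and 1 higher, beside 9.4% and 2.78% of all genes. With so few genes these counts cannot be told from the shares of all genes. The median log2 ratios were 0.29 and 0.24, against 0.18 and 0.16 over all genes. VDAC1, the pore through which substrates of mitochondrial carriers cross the outer membrane, had means of 237 TPM live and 328 TPM fixed in HCT-116 and 164.1 and 231 TPM in HepG2. BSG, which escorts monocarboxylate carriers to the surface, stood at 218 and 201 TPM in HCT-116 and 233 and 249 TPM in HepG2. The lower gene in HepG2 was SLC9A3R1, a membrane scaffold and no carrier itself, at 364 TPM live and 142.7 TPM fixed, and the higher one was ATP6V0C, a proton pump subunit, at 24.7 and 62.01 TPM.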

How the data were processed

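Single live cells and cells kept in 80% methanol for 1 week were sequenced with Smart-seq2. The authors quantified the reads with kallisto 0.46.0 (GRCh38 in the submitters' processing notes), used tximport for the step to genes and deposited gene-level TPM. Their transcript tables, named TPM, were deposited by the authors as CPM with no division by transcript length. Of the labelled cells, 4 fixed HCT-116, 1 live HepG2 and 7 fixed HepG2 cells had no column. No row was 0 in all cells of a table, and a gene listed for 1 line only was taken as 0 in the other (of the members, SLC17A9 in HepG2).

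Members and lists were chosen with earlier results of these data known, and groups follow the labels. No test was run, since each line and treatment is 1 sample (the HepG2 cells stem from 2 experiments, which the labels do not separate). Ratios are log2 ratios of mean TPM with no pseudocount. Named genes were the 8 members with the largest ratio in each direction past the fold in each comparison, the 3 most abundant of each substrate class, the amino acid exchangers, ADP/ATP carriers and zinc transporters, and the 3 on either side of the minimum. Other genes were named after their values were seen, to illustrate a class, a GC band, an isoform or a pair. Substrate classes were assigned by hand, and the class of mitochondrial carriers holds the SLC25 family, with the peroxisomal SLC25A17 counted in it. Intervals on shares of cells are Clopper-Pearson (95%) and cover counting error only. Total reads, from the steps between CPM values to the nearest 0.1 M (mega), ranged from 0.2 to 5.3 M. GC content, length and positions are those of the MANE Select or else canonical GENCODE transcript on GRCh38. Alternatives changed the scaling, the ribosomal RNA, the summary over cells, the fold, the minimum or the set of cells. Python 3.11.15, numpy 2.4.6, pandas 2.3.3, scipy 1.17.1 and matplotlib 3.10.9 were used, and the computations were tested on simulated data.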

Additional observations from a re-analysis of the deposited data

Results flagged for a closer look

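SLC39A8, a zinc and manganese importer, had opposite directions in the lines, which is what singled it out. In HCT-116 it had 8.34 ± 7.52 TPM live and 12.1 ± 11.1 TPM fixed, a log2 ratio of 0.54. In HepG2 it had 17 ± 28.9 TPM live and 11.2 ± 16.2 TPM fixed, a log2 ratio of -0.60, so that the ratio in HepG2 minus that in HCT-116 was -1.14. The difference was not tested, and in each line the means lay closer together than the SD over cells. The HepG2 medians were 6.31 TPM live and 5.66 TPM fixed. Its transcript NM_001135146.1 had lower means after fixation in both lines, 4.72 and 3.76 CPM in HCT-116 and 27.1 and 9.84 CPM in HepG2. NM_001135148.1 had 5.03 CPM live and 10.3 CPM fixed in HCT-116, and 8.86 and 7.77 CPM in HepG2. Of the members, 25 had opposite signs in the lines, and SLC39A8 was the 1 whose ratio was at least 0.5 on the log2 scale in each. Neither was counted over all genes, so these counts cannot be set against a background.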

How the results depend on the processing

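Fixed cells of HCT-116 had a median member log2 ratio of -0.01, which became -0.14 with cells rescaled by the median ratio of genes, -0.32 without ribosomal RNA, -0.28 with means of log2(TPM + 1), -0.13 with median TPM + 0.1 and -0.19 relative to all genes, and turned to 0.077 among cells paired on total reads, 0.036 at a minimum of 10 TPM and 0.0086 with the minimum applied in the line compared. The 13 lower members became 22 without ribosomal RNA, 22 with medians, 26 at a fold of 1.5 and 39 with no minimum level, and the 0 higher ones became 6 at a fold of 1.5, 19 with no minimum and 1 among cells paired on total reads. In HepG2 the median of -0.07 became -0.26 rescaled, -0.24 without ribosomal RNA, 0.12 among paired cells and -0.23 relative to all genes. The 17 lower members became 26 at a fold of 1.5 and 50 with no minimum. The 2 higher ones became 1 rescaled, without ribosomal RNA, relative to all genes or with the minimum applied in the line compared, 0 with means of log2, with medians or at a minimum of 10 TPM, 5 at a fold of 1.5, 18 with no minimum and 3 without the highest cell. Between live lines the median of 0.29 became 0.12 without ribosomal RNA and 0.15 among paired cells, and between fixed lines that of 0.16 became 0.29 with means of log2, 0.28 with medians and 0.028 for genes at the minimum in both. Counts towards HCT-116 and HepG2 became 61 and 77 (live) and 61 and 64 (fixed) with no minimum, and 7 and 14 (live) and 8 and 14 (fixed) for genes at the minimum in both. The share of members lower after fixation stayed above that of all genes except with no minimum in both lines (14.3% against 15.1% in HCT-116 and 18.5% against 19.5% in HepG2) and among paired HCT-116 cells (9.17% against 9.27%). Of 444 values recomputed for 50 named ratios, 395 stayed close, 47 moved and 2 changed sign, SLC43A2 in HCT-116 to 0.034 with medians and SLC1A3 in HepG2 to -0.14 among paired cells; the cause was not tested. Relative to all genes, the minimum in the lines compared, the 6 similar columns left out and the highest cell left out were chosen after seeing the data. No paired analysis was possible because no result comes from a test and each line and treatment is 1 sample. Total reads of fixed cells reached down to 0.2 M in HCT-116 and 1 M in HepG2, and the part of depth in shares of cells with a value above 0 was not tested.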
